A study of Mus musculus with 9 samples.

Results

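The MHC class I presentation genes are 10 genes whose products build or regulate peptide-loaded class I molecules: H2-K1, H2-D1, H2-T23, H2-Q4, B2m, Tap1, Tap2, Tapbp, Nlrc5 and Erap1. They were taken by name from the 16873 genes measured in every heart library. Levels are in FPKM, fragments scaled by transcript length and by the library's total. All 10 genes reached the average of 1 FPKM required for testing, as did 12485 genes in all. The hearts came from Sting-/- mice given doxorubicin (Sting-/- DOX), wild-type mice given doxorubicin (WT DOX) and wild-type mice given saline (WT saline), with 3 libraries in each group. Doxorubicin is an anthracycline cancer drug that damages the heart, and was given at a low dose for a chronic model. STING, encoded by Sting1, is the adaptor that passes the signal of the DNA sensor cGAS to the interferon response, and Sting-/- mice lack it.

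Some features of the groups limit what these comparisons can carry. Since Sting-/- mice without the drug were not analysed here, whatever the genotype does by itself is included in each comparison with Sting-/- DOX. The labels give no strain, age, sex, dose, time or H2 haplotype, and class I heavy chains are polymorphic between mouse strains. Nor do they state separate animals behind the libraries of 1 group, so p-values may measure technical spread. The 3 comparisons share libraries with one another. Sting1 itself was listed at 0.06, 0 and 0 FPKM in Sting-/- DOX, against 17.49, 17.96 and 17.76 FPKM in WT DOX and 5.10, 5.43 and 5.93 FPKM in WT saline. Library sums were 539287 to 543352 FPKM in Sting-/- DOX, 559998 to 570128 in WT DOX and 552456 to 555425 in WT saline. Read depth cannot be had exactly from FPKM values. The 10 genes made up 0.904% to 0.928% of the sum in Sting-/- DOX, 0.642% to 0.675% in WT DOX and 0.355% to 0.392% in WT saline, and these ranges did not overlap.

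MHC class I molecules show peptides from the inside of a cell to CD8 T cells and natural killer cells. Proteasomes cut proteins into peptides, the TAP transporter carries these into the endoplasmic reticulum, aminopeptidases trim them there, and tapasin and its partners load them onto a heavy chain held together by beta-2-microglobulin. Interferons raise transcription of many of these genes, partly through the transactivator NLRC5. In the healthy heart, endothelial cells and resident leukocytes are known to carry more class I than cardiomyocytes do.

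In wild-type hearts, most of the 10 genes were higher with doxorubicin. Against WT saline, 10 of 10 passed the test upward in WT DOX (limma on log2(FPKM + 1), Benjamini-Hochberg adjusted p under 0.05), where 45.3% of all genes tested rose and 21.5% fell. The count was 8 after median-ratio scaling and after quantile normalization, without Erap1 and Tap2, and 9 in most other settings tried, without Erap1. The median log2 fold change of the 10 genes was 0.88, beside 0.13 for all genes tested. Between the doxorubicin groups, 7 of 10 rose in Sting-/- DOX against WT DOX (H2-K1, H2-D1, H2-T23, H2-Q4, B2m, Tap2 and Tapbp), Nlrc5 and Erap1 fell, and Tap1 did not pass. Of all genes tested in that comparison, 54.1% rose and 29.7% fell, so the share of the 10 genes that rose was not far above the background. Their median log2 fold change there was 0.48, beside 0.25 for all genes. Across both steps, in Sting-/- DOX against WT saline, 9 of 10 rose (8 after quantile normalization, without Nlrc5) and Erap1 did not pass, where 63% of all genes rose and 25.9% fell, with medians of 1.42 for the 10 genes and 0.49 for all genes.

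**Figure D1:**
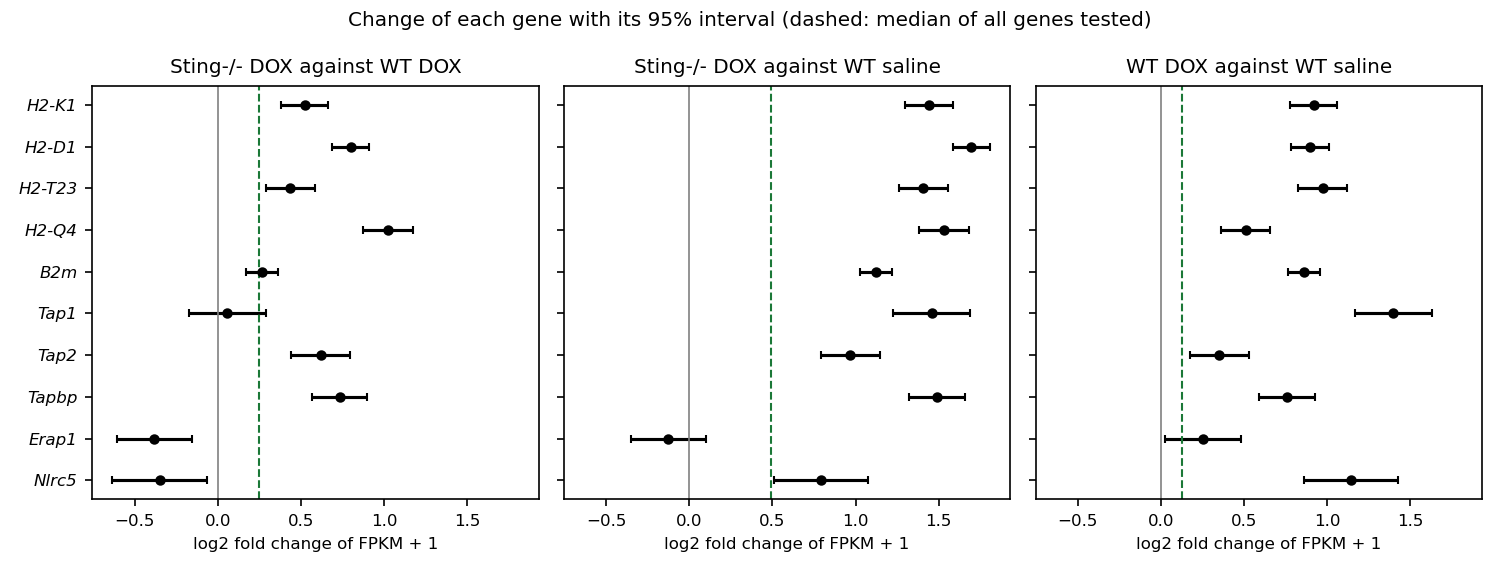
Log2 fold change of FPKM + 1 (horizontal axis) of each of the 10 genes in the 3 comparisons, with 95% intervals from limma; the dashed line is the median of all genes tested. All 10 genes lay above 0 in WT DOX against WT saline, while in Sting-/- DOX against WT DOX they ran between -0.38 (Erap1) and 1.02 (H2-Q4).

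The heavy chains carry the peptide groove. H2-K1 (gene identifier 14972) and H2-D1 (14964) are the classical, widely expressed ones, which present peptides to CD8 T cells. H2-K1 stood at 640.9, 649.3 and 664.3 FPKM in Sting-/- DOX, against 504.2, 398.7 and 463.2 FPKM in WT DOX and 242.1, 237.4 and 239.0 FPKM in WT saline. H2-D1 stood at 769.3, 834.6 and 804.2 FPKM in Sting-/- DOX, against 501.1, 430.0 and 453.3 FPKM in WT DOX and 248.1, 249.1 and 243.8 FPKM in WT saline. For both genes every Sting-/- DOX library lay above every WT DOX library, and these above every WT saline library. By mean FPKM, H2-D1 was the gene of rank 103 in Sting-/- DOX, 210 in WT DOX and 324 in WT saline.

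Both classical genes rose with the drug by nearly the same amount and then separated in the mutant. H2-K1 rose by 0.92 ± 0.07 in WT DOX against WT saline (log2 ± SE, limma adjusted p = 1.476e-07) and H2-D1 by 0.90 ± 0.05 (limma adjusted p = 2.071e-08). H2-D1 rose by 0.80 ± 0.05 in Sting-/- DOX against WT DOX (limma adjusted p = 2.041e-08) and H2-K1 by 0.52 ± 0.07 (limma adjusted p = 1.061e-05). The ratio of H2-K1 to H2-D1 within a library, which multiplying a library by a factor cannot alter, was 0.833, 0.778 and 0.826 in Sting-/- DOX, against 1.01, 0.927 and 1.02 in WT DOX and 0.976, 0.953 and 0.980 in WT saline. The Sting-/- DOX ratios lay below all others, and the wild-type groups overlapped.

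H2-T23 (15040) encodes Qa-1, a non-classical heavy chain that shows leader peptides of other class I molecules to CD94/NKG2 receptors of natural killer cells. It stood at 96.0, 102.4 and 105.8 FPKM in Sting-/- DOX, against 70.3, 79.2 and 74.6 FPKM in WT DOX and 34.9, 41.8 and 36.4 FPKM in WT saline. The groups did not overlap. H2-T23 rose by 0.44 ± 0.07 in Sting-/- DOX against WT DOX (limma adjusted p = 6.656e-05) and by 0.97 ± 0.07 in WT DOX against WT saline (limma adjusted p = 1.153e-07). H2-Q4 (15015), a heavy chain of the Qa group, had a different profile, with the larger step between the doxorubicin groups. It stood at 144.0, 162.5 and 173.8 FPKM in Sting-/- DOX, against 73.8, 80.6 and 79.7 FPKM in WT DOX and 50.7, 57.1 and 55.9 FPKM in WT saline. H2-Q4 rose by 1.02 ± 0.07 in Sting-/- DOX against WT DOX (limma adjusted p = 2.813e-08) and by 0.51 ± 0.07 in WT DOX against WT saline (limma adjusted p = 3.632e-05). Those steps were not tested against each other, and both use the WT DOX libraries.

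**Figure D2:**
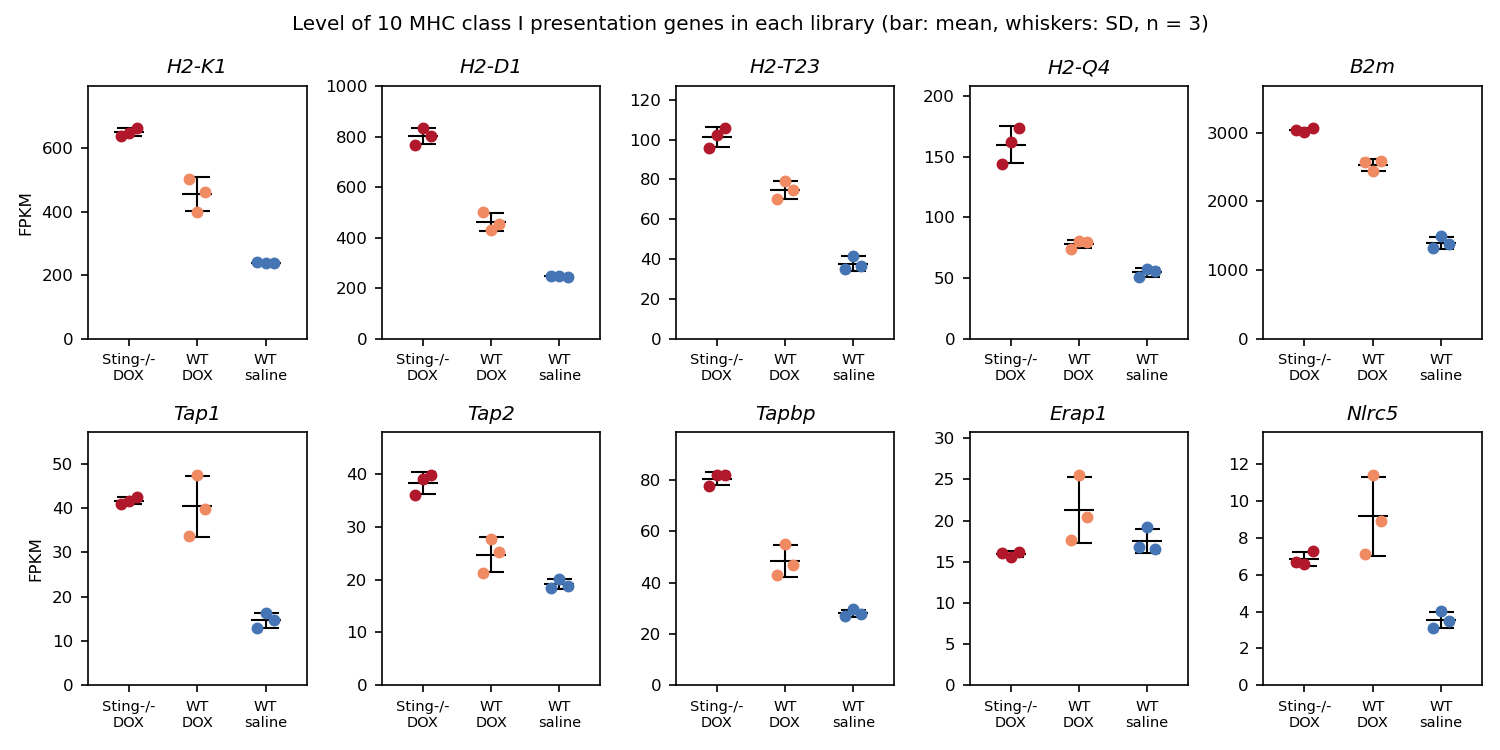
FPKM of each of the 10 genes in every library (points), with group mean (bar) and SD (whiskers, n = 3), for Sting-/- DOX, WT DOX and WT saline; each panel has its own linear axis starting at 0. H2-K1, H2-D1, H2-T23, H2-Q4, B2m, Tap2 and Tapbp formed 3 separate levels, Tap1 and Nlrc5 overlapped between the doxorubicin groups, and Erap1 had its highest mean in WT DOX.

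The heavy chain genes share sequence, and a read from a shared stretch could have been assigned to a neighbour in the family. In the GENCODE M21 transcripts, windows of 50 bases that also occur in transcripts of other genes made up 8.79% of the H2-K1 transcript, 14.3% of H2-D1, 24.3% of H2-Q4 and 28.8% of H2-T23. For windows of 100 bases the shares were 0%, 4.64%, 2.66% and 7.28% in the same order. B2m, Nlrc5 and Erap1 shared no 50-base window with another gene, Tap1 and Tap2 shared 0.861% and 0.737% of theirs with each other, and Tapbp shared 2% of its windows. The levels of H2-Q4 and H2-T23 are therefore less certain than those of H2-K1. The sum of the 19 class I heavy chain genes in the files depends less on how reads were split among them. It was 2107 ± 51.3 FPKM in Sting-/- DOX, 1285 ± 82.3 FPKM in WT DOX and 725 ± 10.99 FPKM in WT saline (SD, n = 3 each). As 1 feature, the summed heavy chains changed by 0.72 on the log2 scale in Sting-/- DOX against WT DOX and by 0.82 in WT DOX against WT saline. H2-K1 and H2-D1 together made up 69.0% of the sum in Sting-/- DOX, 71.3% in WT DOX and 67.1% in WT saline.

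Class I promoters are known to hold a kappaB site bound by NF-kappaB, an interferon-stimulated response element (ISRE) bound by IRF factors, and a module of X and Y boxes through which NLRC5 acts. The stretches below are shown because these 5 genes encode the class I molecule itself, heavy chains and light chain, and each stretch was cut around the matches it holds. Sequences are RefSeq promoters of the GRCm38.p6 build, which is not the build of the files, read 5′ to 3′ on the strand of the gene, with matches to the searched letters in capitals. The letters searched were GGG, any 2 bases and TTCCC for the kappaB core, and GAAA, any 2 bases and GAAA for the ISRE core. A shorter ISRE-like core, GAA, any 2 bases and GAAA, was added after the sequences were seen. TGACG, the core of the cAMP response element found in X2 boxes, and CCAAT, the Y box core, were searched too, each on both strands in the 250 bases before the start, and no matches overlapped in the stretches shown.
H2-K1: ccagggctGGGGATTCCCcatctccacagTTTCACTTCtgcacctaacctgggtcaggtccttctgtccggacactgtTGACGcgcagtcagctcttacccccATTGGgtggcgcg
H2-D1: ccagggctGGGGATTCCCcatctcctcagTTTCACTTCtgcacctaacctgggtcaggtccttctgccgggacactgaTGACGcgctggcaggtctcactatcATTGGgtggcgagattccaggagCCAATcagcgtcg
H2-Q4: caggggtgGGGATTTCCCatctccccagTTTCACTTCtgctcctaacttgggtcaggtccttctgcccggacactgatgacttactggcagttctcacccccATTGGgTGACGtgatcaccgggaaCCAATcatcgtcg
H2-T23: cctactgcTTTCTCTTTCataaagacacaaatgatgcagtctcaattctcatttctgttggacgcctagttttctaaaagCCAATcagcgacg
B2m: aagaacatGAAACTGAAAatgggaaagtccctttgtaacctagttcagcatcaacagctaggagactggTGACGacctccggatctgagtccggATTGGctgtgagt

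The H2-K1 stretch lies at chr17:34000351-34000466 on the minus strand and ends 4 bases before the annotated start. The H2-D1 stretch lies at chr17:35262915-35263053 and the H2-Q4 stretch at chr17:35379436-35379574, both on the plus strand, ending 41 and 43 bases before the start. The H2-T23 stretch lies at chr17:36032741-36032833 on the minus strand and the B2m stretch at chr2:122147540-122147646 on the plus strand. H2-K1, H2-D1 and H2-Q4 held the kappaB core and the shorter ISRE-like core side by side, whereas H2-T23 and B2m held the full ISRE core and no kappaB core. In H2-K1 and H2-D1, TGACG came before ATTGG, which is CCAAT on the other strand. In H2-Q4 it came after ATTGG, so this match does not lie at the same place. From the kappaB match on, H2-K1 and H2-D1 were identical at 82 of 90 bases (91.1%), so they are not separate examples of a shared element. The H2-Q4 stretch also reads much like both, with its identity not computed, and is not a separate example either.

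RefSeq promoters were found for 8 of the 10 genes, Tap2 and Nlrc5 being the others. The kappaB core was in 3 of the 8, beside 1.44% of the 27025 promoters in the table, and the ISRE core in 2 of the 8, beside 3.04%. The shorter ISRE-like core was in 3 of 8 (6.34% of all promoters), TGACG in 5 of 8 (17.9%) and CCAAT in 7 of 8 (34.5%). The kappaB and shorter ISRE-like matches were all in H2-K1, H2-D1 and H2-Q4. Their stretches are alike, so these matches are not separate cases to set beside the shares of all promoters. Tapbp, which rose in both comparisons like the genes shown, held CCAAT and none of the other matches, and Erap1 held none of them in its window. A match is a run of letters and was not examined as a binding site.

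B2m (12010) encodes beta-2-microglobulin, the light chain that every class I heavy chain needs to reach the surface. It stood at 3045, 3013 and 3072 FPKM in Sting-/- DOX, against 2577, 2439 and 2589 FPKM in WT DOX and 1319, 1496 and 1381 FPKM in WT saline. The groups did not overlap, and B2m was the gene of rank 11, 18 and 46 by mean FPKM in those groups. B2m rose by 0.86 ± 0.04 in WT DOX against WT saline (limma adjusted p = 7.493e-09). It rose by 0.26 ± 0.04 in Sting-/- DOX against WT DOX (limma adjusted p = 0.0001288), close to the median of all genes (0.25), and the value was -0.031 after median-ratio scaling of the libraries.

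B2m relative to its heavy chains overlapped between the wild-type groups and was lower in the mutant. B2m over the summed heavy chains was 1.49, 1.41 and 1.44 in Sting-/- DOX, against 1.89, 2.03 and 2.01 in WT DOX and 1.84, 2.03 and 1.91 in WT saline. All Sting-/- DOX libraries lay below all wild-type libraries, and the wild-type groups overlapped.

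Tap1 (21354) and Tap2 (21355) encode the subunits of the TAP peptide transporter, a heterodimer. Tap1 stood at 40.9, 41.7 and 42.6 FPKM in Sting-/- DOX, against 33.8, 47.6 and 39.8 FPKM in WT DOX and 13.0, 16.3 and 14.6 FPKM in WT saline. The doxorubicin groups overlapped and both lay above WT saline. Tap1 had the largest rise of the 10 genes in WT DOX against WT saline, by 1.40 ± 0.10 (limma adjusted p = 2.301e-07). Its difference in Sting-/- DOX against WT DOX was 0.059 with a 95% interval of -0.17 to 0.29 (limma adjusted p = 0.6121), and its sign turned to -0.23 after median-ratio scaling, to -0.026 after quantile normalization and to -0.0595 without WT DOX library 1.

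Tap2 had its larger step between the doxorubicin groups, with its steps not tested against each other. It stood at 36.0, 39.2 and 39.9 FPKM in Sting-/- DOX, against 21.3, 27.8 and 25.2 FPKM in WT DOX and 18.4, 20.2 and 18.7 FPKM in WT saline. The groups did not overlap, with a narrow gap between the wild-type ones. Tap2 rose by 0.62 ± 0.08 in Sting-/- DOX against WT DOX (limma adjusted p = 1.654e-05). It rose by 0.35 ± 0.08 in WT DOX against WT saline (limma adjusted p = 0.002411), and this call was lost after median-ratio scaling (0.11, limma adjusted p = 0.2334) and quantile normalization (0.15, limma adjusted p = 0.09366).

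The balance of the transporter's transcripts thus differed in all groups. Tap1 over Tap2 was 1.14, 1.07 and 1.07 in Sting-/- DOX, against 1.59, 1.72 and 1.58 in WT DOX and 0.704, 0.808 and 0.780 in WT saline. Each group was separate from the others, with WT DOX highest, Sting-/- DOX between and WT saline lowest.

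Tapbp (21356) encodes tapasin, which bridges TAP to the empty heavy chain and favours tightly bound peptides. It stood at 77.5, 81.9 and 82.1 FPKM in Sting-/- DOX, against 42.8, 55.1 and 46.8 FPKM in WT DOX and 26.8, 29.6 and 27.7 FPKM in WT saline. Its groups did not overlap. Tapbp rose by 0.73 ± 0.08 in Sting-/- DOX against WT DOX (limma adjusted p = 1.911e-06) and by 0.76 ± 0.08 in WT DOX against WT saline (limma adjusted p = 3.142e-06). Tapbp over Tap1 was 1.90, 1.96 and 1.93 in Sting-/- DOX, against 1.27, 1.16 and 1.18 in WT DOX and 2.07, 1.82 and 1.89 in WT saline. The WT DOX ratios lay below those of the other groups, which overlapped.

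**Figure D3:**
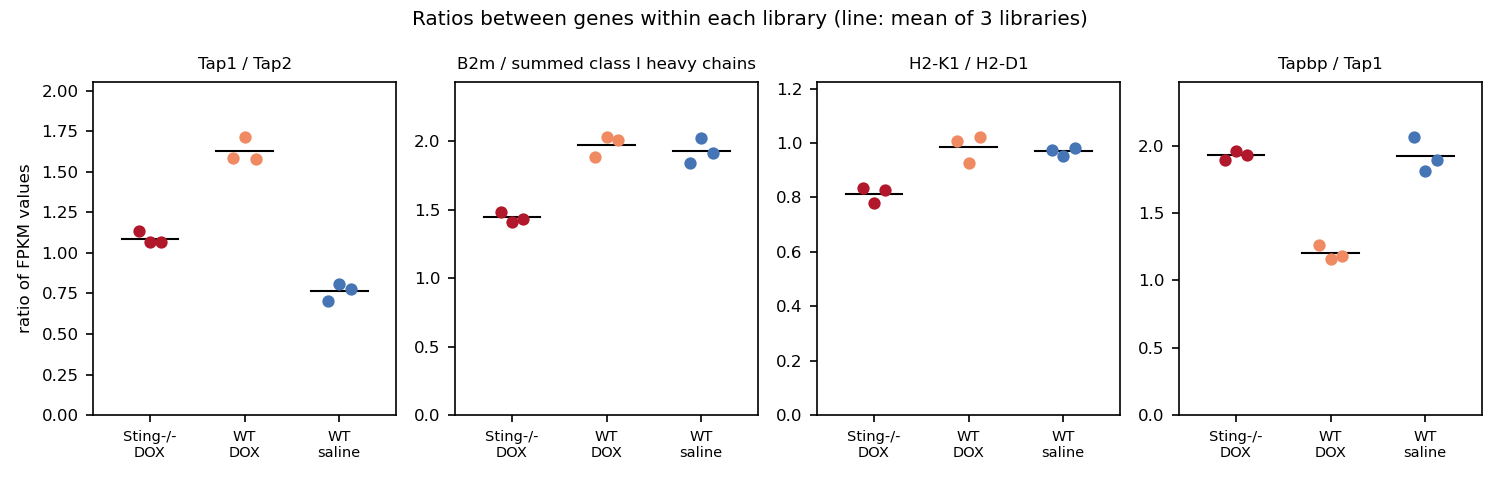
Ratios of FPKM values between genes within each library (points) with the mean of 3 libraries (line), on linear axes from 0. Tap1 over Tap2 separated all 3 groups, B2m over summed heavy chains and H2-K1 over H2-D1 were lower in Sting-/- DOX than in both wild-type groups, and Tapbp over Tap1 was lower in WT DOX than in the other groups.

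Erap1 (80898) encodes the aminopeptidase that trims peptides in the endoplasmic reticulum, and over the groups it did not follow most of the other genes. It stood at 16.1, 15.6 and 16.2 FPKM in Sting-/- DOX, against 17.7, 25.6 and 20.5 FPKM in WT DOX and 16.8, 19.2 and 16.6 FPKM in WT saline. WT DOX overlapped WT saline, and Sting-/- DOX lay below both. Erap1 fell by 0.38 in log2 units in Sting-/- DOX against WT DOX (SE 0.10, limma adjusted p = 0.004819). It rose by 0.25 ± 0.10 in WT DOX against WT saline (limma adjusted p = 0.04811). That call was lost in 14 of the 19 other settings tried, among them the fits that left out the WT saline libraries 1 or 3, the WT DOX libraries 2 or 3, or any of Sting-/- DOX, with adjusted p of 0.003575 to 0.9063 over the settings and 0.12 as its log2 value without WT DOX library 2. The difference in Sting-/- DOX against WT saline was -0.13 (95% interval -0.35 to 0.10, limma adjusted p = 0.2669). Set against H2-K1, Erap1 made up 2.44% ± 0.0555 of its FPKM value in Sting-/- DOX, 4.78% ± 1.49 in WT DOX and 7.31% ± 0.659 in WT saline (SD, n = 3 each).

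Nlrc5 (434341) encodes the transactivator of class I, B2m, Tap1 and immunoproteasome genes, and was the least abundant of the 10. It stood at 6.72, 6.58 and 7.30 FPKM in Sting-/- DOX, against 7.12, 11.5 and 8.94 FPKM in WT DOX and 3.12, 4.01 and 3.51 FPKM in WT saline. The doxorubicin groups overlapped at the lowest WT DOX library and both lay above WT saline. Nlrc5 rose by 1.14 ± 0.13 in WT DOX against WT saline (limma adjusted p = 8.442e-06) and by 0.79 ± 0.13 in Sting-/- DOX against WT saline (limma adjusted p = 8.633e-05). The second of these was 0.34 after median-ratio scaling and 0.25 after quantile normalization, where the call was lost (limma adjusted p = 0.08028), with adjusted p of 7.711e-06 to 0.08028 over the settings. Nlrc5 fell by 0.35 in log2 units in Sting-/- DOX against WT DOX (SE 0.13, limma adjusted p = 0.02439). This call was lost with TPM scaling (-0.31) and without WT DOX library 2 (-0.19), WT DOX library 3 (-0.36), Sting-/- DOX library 1 (-0.34) or Sting-/- DOX library 2 (-0.32), with adjusted p of 0.0005111 to 0.1125 over the settings. Nlrc5 was 0.326% of the summed heavy chains in Sting-/- DOX, 0.723% in WT DOX and 0.489% in WT saline. A rise of the heavy chains alone lowers this share, and Nlrc5 itself overlapped between the doxorubicin groups.

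Counted by ranges, 9 of the 10 genes had every WT DOX library above every WT saline library, where 47.8% of all genes did and 23.8% lay wholly below, and Erap1 overlapped. Of the same genes in Sting-/- DOX against WT DOX, 7 lay wholly above (54.7% of all genes), Erap1 lay wholly below (30.1% of all genes), and Tap1 and Nlrc5 overlapped. Against WT saline, Sting-/- DOX lay wholly above for 9 (63.2% of all genes) and wholly below for Erap1 (26% of all genes). The log2 fold changes in Sting-/- DOX against WT saline were 1.70 for H2-D1, 1.53 for H2-Q4, 1.49 for Tapbp, 1.46 for Tap1, 1.44 for H2-K1, 1.41 for H2-T23, 1.12 for B2m and 0.97 for Tap2, all of which passed the test. That comparison changes genotype and drug at once. An exact permutation test of 3 against 3 libraries cannot go below p = 0.1.

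The WT DOX libraries spread more widely than those of the other groups for H2-K1, H2-D1, Tap1, Tap2, Tapbp, Nlrc5 and Erap1. WT DOX library 2 was highest and library 1 lowest for H2-T23, H2-Q4, Tap1, Tap2, Tapbp, Nlrc5 and Erap1. H2-K1 and H2-D1 were the reverse, highest in library 1 and lowest in library 2, and B2m was highest in library 3. The span of log2(FPKM + 1) over the WT DOX libraries was 0.617 for Nlrc5, 0.509 for Erap1, 0.481 for Tap1 and 0.338 for H2-K1. Over the Sting-/- DOX libraries the spans of those genes were 0.131, 0.053, 0.058 and 0.052.

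**Figure D4:**
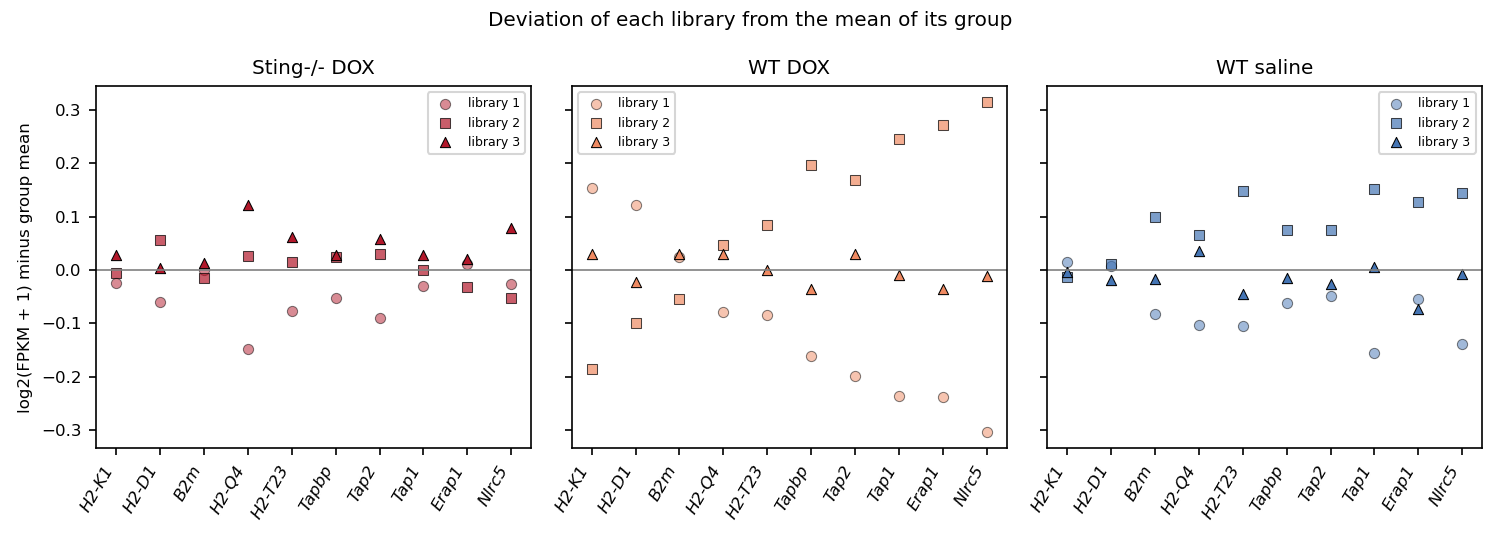
Deviation of log2(FPKM + 1) from the group mean (vertical axis) for each gene and library, in Sting-/- DOX, WT DOX and WT saline. In WT DOX, H2-K1 was at 0.153 in library 1 and -0.185 in library 2, while Nlrc5 was at -0.303 in library 1 and 0.314 in library 2.

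Genes outside the 10 were ranked by Pearson r with 4 of them among 8836 genes averaging 5 FPKM or more. Over the levels in all 9 libraries, where group differences set most of r, the closest to H2-K1 were Rps10 (0.998), H2-DMb1 (0.997), Bcr and Rpl13 (both 0.996). Closest to B2m were Plekho2 (0.998), Vamp8, Psmb8 (both 0.997) and Tubb5 (0.997). Closest to Tap1 were Rnf4 (0.995), Zbtb8b (0.994), Eif3e and Eif6 (both 0.992), and closest to Nlrc5 were Ifi35, Parp12 (both 0.991), Tor1aip2 and Trim30a (both 0.988). Over deviations from group means, which the spread of WT DOX dominates, Nlrc5 was closest to Fcho2 (0.991), Irgm2, Gbp2 (both 0.987) and Gbp4 (0.986). Tap1 was closest to Parp14 (0.993), Srpk2 (0.991), Rtp4 and Fcho2 (both 0.987). H2-K1 was closest to H2-Ab1 (0.984), Map7d1 (0.980), Cd74 (0.980) and Rps10 (0.979), of which H2-Ab1 and Cd74 belong to MHC class II presentation. B2m was closest to Wdr36 (0.988), Mybpc2 (0.969), Cacybp (0.957) and Sh3bp5l (0.951). Between the 10 genes themselves, r of the deviations was 0.980 for Nlrc5 with Tap1, 0.845 for H2-K1 with H2-D1, and -0.878 for Nlrc5 with H2-K1.

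H2-K1, H2-D1, H2-T23, H2-Q4, Tap1, Tap2 and Tapbp lie within the MHC on chromosome 17, together with the immunoproteasome genes Psmb8 and Psmb9, while B2m, Nlrc5 and Erap1 lie elsewhere. The genes that fell or did not pass in Sting-/- DOX against WT DOX were Nlrc5 and Erap1, from outside, and Tap1, from inside. Between Tapbp and H2-T23 in gene order, an interval chosen after the values were seen, 21 antigen presentation genes were tested. Of these, 19 rose in Sting-/- DOX against WT DOX, with a median log2 fold change of 0.66. Among all genes tested, 54.1% rose there, with a median of 0.25. The 21 include H2-K1, H2-D1, H2-T23, H2-Q4, Tap1, Tap2 and Tapbp, already reported above, with Psmb8, Psmb9 and MHC class II genes. Chosen by name, they also take in any other class I heavy chain gene there, so they can overlap the list that follows. Tapbp and H2-T23 also bound the interval, so its values are not a result separate from theirs. Of the other 76 genes tested in the interval, 71.1% rose, with a median of 0.43. Of those 21, 20 rose in WT DOX against WT saline (median 0.90), against 59.2% of the other genes in the interval (median 0.31). Among all genes tested, 45.3% rose there, with a median of 0.13.

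The other class I and class I-like heavy chains were followed for comparison. Of 11 tested, 8 rose in Sting-/- DOX against WT DOX (median 0.74), where 54.1% of all genes rose. H2-Q10, a secreted heavy chain known from liver, fell there by 1.13 in log2 units (limma adjusted p = 2.356e-06). H2-Q10 stood at 0.870 ± 0.0400 FPKM in Sting-/- DOX, 3.15 ± 0.804 in WT DOX and 0.450 ± 0.0361 in WT saline (SD, n = 3 each). The largest rises were in H2-Q6 (1.35), Fcgrt (1.22), which encodes the neonatal Fc receptor, and H2-Q7 (1.19). H2-Q6 and H2-Q7 are closely related in sequence, so their separate values are uncertain. With the drug in wild type, 6 of 11 rose in WT DOX against WT saline (median 0.23), not far above the 45.3% of all genes that rose. They were led by H2-Q10 (1.5), H2-T22 (0.78) and H2-M3 (0.70), and Fcgrt fell by 0.37.

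Chaperones that fold the heavy chain were a short list. Of 4 tested, 3 rose in Sting-/- DOX against WT DOX (median 0.37), where 54.1% of all genes rose. Among them were Pdia3 (0.67), the disulfide isomerase of the loading complex, and Calr (0.44), the chaperone calreticulin. Canx, the membrane chaperone calnexin, fell by 0.34. All 4 rose in WT DOX against WT saline (median 0.85), where 45.3% of all genes rose. They included Pdia3 (1.01), Calr (0.91) and Tapbpl (0.79), which encodes the tapasin relative TAPBPR.

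The proteasome genes that supply peptides went in both directions. All 5 immunoproteasome and PA28 genes rose in WT DOX against WT saline (median 0.995), where 45.3% of all genes rose. The MHC-encoded catalytic subunits Psmb9 (0.77) and Psmb8 (0.40) rose in Sting-/- DOX against WT DOX, while Psmb10, Psme1 and Psme2 fell, Psme1 by 0.63, for a median of -0.37. Of their constitutive counterparts, 2 of 4 rose in WT DOX against WT saline. In Sting-/- DOX against WT DOX, 4 of 4 fell (median -0.57), where 29.7% of all genes fell. Psmb7 stood at 75.6 ± 6.15 FPKM in Sting-/- DOX, 208 ± 3.90 in WT DOX and 191 ± 6.74 in WT saline (SD, n = 3 each). Like Erap1, 4 of 7 other peptidases that shape class I peptides fell in Sting-/- DOX against WT DOX (median -0.51), and none rose. Of all genes, 29.7% fell and 54.1% rose in that comparison. Lnpep (-1.60), the endosomal relative of Erap1, fell most among the 7. Of the 7, 4 rose in WT DOX against WT saline (median 0.16) and Nrd1 fell by 0.39.

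Of 12 factors known to act on class I promoters, 9 rose and 2 fell in Sting-/- DOX against WT DOX (median 0.58). Of all genes tested, 54.1% rose and 29.7% fell in that comparison. Rela, the NF-kappaB subunit that binds kappaB sites, rose by 1.10 and Creb1 by 0.92. The drug comparison, WT DOX against WT saline, had 9 of 12 higher (median 0.35), where 45.3% of all genes rose. Among them were Irf1 (0.95) and Nfya (0.52), a subunit of the factor that binds CCAAT.

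Interferon targets are given here beside the class I genes, with the difference between them not tested. Of 9 type I interferon targets, 6 fell in Sting-/- DOX against WT DOX (median -1.10), where 54.1% of all genes rose and 29.7% fell. Ifit1 fell by 2.40 and Ifit3 by 1.71, and Rsad2 and Cmpk2 rose. Of 10 interferon gamma targets, 4 rose and 4 fell in the same comparison (median 0.05), the largest fall being that of Igtp (-2.59), at 45.7 ± 1.03 FPKM in Sting-/- DOX, 302 ± 137 in WT DOX and 77.8 ± 11.4 in WT saline (SD, n = 3 each). Both lists rose in WT DOX against WT saline, with 8 of 9 type I targets (median 1.07) and 10 of 10 interferon gamma targets (median 0.95) passing, beside the median of 0.88 for the 10 presentation genes. Of all genes tested, 45.3% rose in that comparison.

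Receptors on leukocytes that bind class I or class I-like molecules were followed as well. All 5 tested rose in WT DOX against WT saline (median 1.36), where 45.3% of all genes rose. They were led by Pirb (2.30), an inhibitory receptor of myeloid cells, and Klra2 (1.94), a Ly49 receptor. Klra2, Klrk1 and Cd8b1 fell in Sting-/- DOX against WT DOX and none rose (median -0.54), where 29.7% of all genes fell. Klra2 stood at 1.90 ± 0.251 FPKM in Sting-/- DOX, 6.55 ± 0.949 in WT DOX and 0.953 ± 0.0451 in WT saline (SD, n = 3 each).

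Cell type markers moved with these results, and their part in them was not tested. In bulk hearts, fewer cells of a type and less RNA per cell cannot be told apart. The summed FPKM of 10 endothelial markers was 1436 to 1544 in Sting-/- DOX, 331 to 338 in WT DOX and 339 to 351 in WT saline. Of these markers, 10 of 10 were above WT DOX in every Sting-/- DOX library, as were 54.7% of all genes. Set against that sum, the summed heavy chains were 1.41 ± 0.0238 in Sting-/- DOX, 3.83 ± 0.288 in WT DOX and 2.11 ± 0.00863 in WT saline (SD, n = 3 each), so per endothelial marker transcript the class I heavy chains were lowest in Sting-/- DOX. That order depends on the list chosen. Against cardiomyocyte markers it would be highest in Sting-/- DOX, where the heavy chain sum was highest and the cardiomyocyte sum lowest. The 10 cardiomyocyte markers summed to 10199 to 10710 FPKM in Sting-/- DOX, 45015 to 47715 in WT DOX and 69559 to 70479 in WT saline. Macrophage and monocyte markers (10 of 10 measured) summed to 2949 to 3065, 1440 to 1623 and 499 to 553 FPKM in those groups. Within that list, 7 of 10 rose in Sting-/- DOX against WT DOX, where 54.1% of all genes rose, Mrc1 and Fcgr1 fell, and Cd14 did not pass. Fcgr1 stood at 13.6 ± 1.18 FPKM in Sting-/- DOX and 29.7 ± 2.58 in WT DOX (SD, n = 3 each). Fibroblast markers summed to 4529 to 4789, 732 to 748 and 483 to 491 FPKM, smooth muscle and pericyte markers to 964 to 1030, 251 to 263 and 295 to 340 FPKM, and mesothelial markers to 63.3 to 68.2, 2.12 to 3.03 and 3.35 to 5.33 FPKM, given for Sting-/- DOX, WT DOX and WT saline. Smooth muscle and mesothelial sums were thus lowest in WT DOX, but sums follow the most abundant markers. Of the smooth muscle and pericyte markers, Tagln, Cnn1 and Pdgfrb rose in WT DOX against WT saline, Myh11, Rgs5 and Kcnj8 fell, and Acta2 did not pass. Of the mesothelial markers, Msln and Upk3b fell and Wt1 and Lrrn4 did not pass. Among the fibroblast markers, Pdgfra did not pass in Sting-/- DOX against WT DOX, while the others rose. Dendritic cell markers summed to 29.6 to 31.8 FPKM in Sting-/- DOX, 7.83 to 8.33 in WT DOX and 6.78 to 7.80 in WT saline, and B cell markers to 6.60 to 7.55, 3.75 to 4.95 and 1.47 to 2.59 FPKM in those groups.

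Summed neutrophil, T cell and natural killer cell markers were highest in WT DOX. Neutrophil markers (5 of 7 measured) summed to 82.2 to 97.5 FPKM in Sting-/- DOX, 209 to 276 in WT DOX and 6.31 to 7.02 in WT saline. T cell markers summed to 6.27 to 7.90 FPKM in Sting-/- DOX, 8.02 to 17.6 in WT DOX and 3.84 to 4.70 in WT saline, and natural killer cell markers to 5.54 to 7.86, 9.62 to 14.4 and 2.75 to 3.44 FPKM in those groups. Cd4, on the T cell list, rose in Sting-/- DOX against WT DOX (0.41, limma adjusted p = 0.01797). Within WT DOX, T cell markers summed to 17.6, 8.02 and 13.9 FPKM in libraries 1, 2 and 3, the order of H2-K1 and the reverse of that of Nlrc5. Natural killer cell, macrophage and monocyte, and cardiomyocyte sums had the same order as T cell sums. Neutrophil, endothelial and mesothelial sums had the order of Nlrc5. The order of 3 libraries is thus not particular to T cell markers. No marker on these lists was at 0 in all libraries of a group.

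FPKM is relative to the rest of each library, and the 10 most abundant genes held 8.09% to 8.44% of the sum in Sting-/- DOX, 11.5% to 12% in WT DOX and 16.5% to 16.6% in WT saline. Of the genes that passed, 64.6% were higher in Sting-/- DOX against WT DOX with FPKM as deposited, 49.2% after median-ratio scaling and 51.4% after quantile normalization. In WT DOX against WT saline the shares were 67.8%, 41.3% and 39.2%. Under median-ratio scaling, H2-Q4 (0.73), H2-D1 (0.50), Tapbp (0.44), Tap2 (0.33) and H2-K1 (0.23) still rose in Sting-/- DOX against WT DOX, H2-T23 (0.14, limma adjusted p = 0.05822) and B2m (-0.031) did not, and Nlrc5 (-0.60) and Erap1 (-0.66) fell further.

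**Figure D5:**
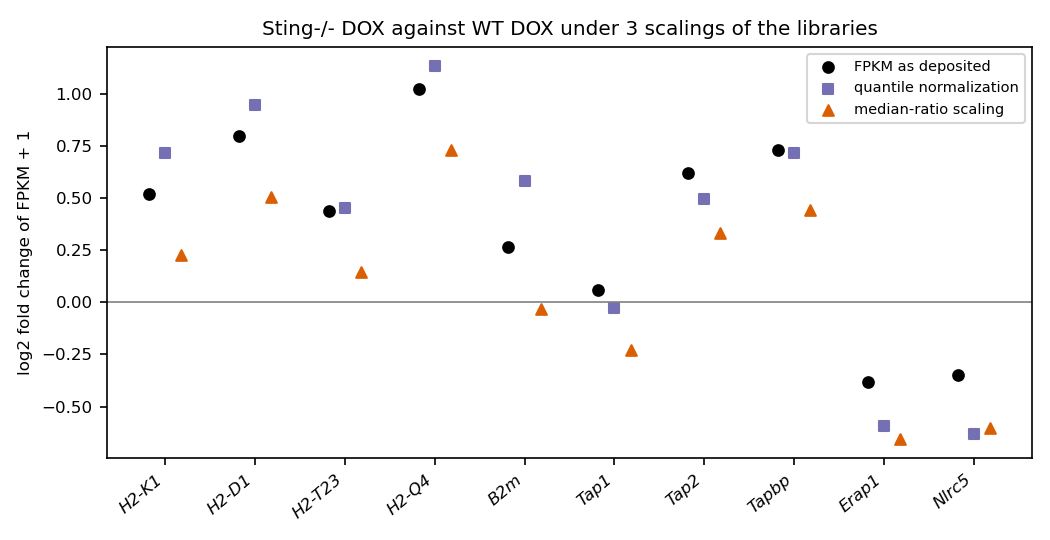
Log2 fold change of FPKM + 1 (vertical axis) of each gene in Sting-/- DOX against WT DOX, with FPKM as deposited, after quantile normalization and after median-ratio scaling. H2-K1, H2-D1, H2-T23, H2-Q4, Tap2 and Tapbp stayed above 0 and Erap1 and Nlrc5 below 0 under these scalings, while B2m (0.26, 0.58 and -0.031) and Tap1 (0.059, -0.026 and -0.23) changed sign.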

How the data were processed

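Mouse heart RNA-seq libraries, 3 in each of 3 groups named in the sample titles, were compared. RNA was isolated with a QIAGEN kit and prepared for sequencing with an MGI kit, per the labels' protocols. The authors deposited FPKM values per gene, to 2 decimals, for the same 16873 genes in every library. GRCm39 is the build, and RSEM 1.2.12, HISAT2 2.0.4 and Bowtie2 2.2.5 are listed with no role, per the submitters' processing notes. FPKM keeps no counts, so no count model was used, and it is relative to each library's total.

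Gene identifiers were matched to symbols through a RefSeq table of GRCm38.p6 (16825 matched, 48 not), used for names and gene order. log2(FPKM + 1) was tested with limma 3.58.1 in R 4.3.3 (trended prior, all 9 libraries, 6 residual degrees of freedom) on the 12485 genes averaging 1 FPKM or more, two-sided, Benjamini-Hochberg adjusted over all of them at 0.05. Fold changes of low genes are understated on this scale. The fit was tested on simulated data. Joins, promoter searches and figures used Python 3.11.15 with numpy 2.4.6, pandas 2.3.3 and matplotlib 3.10.9. Motif shares refer to windows of 250 bases.

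The members and gene lists were chosen with earlier results of these data known. Of each list, the genes named are those alone in their direction and the 3 with the largest change among those that passed. A listed gene that this rule would name is not reported here. Alternatives covered the pseudocount, the filter, scaling, the samples fitted, the variance prior, a replicate block, leaving out each library and summing the heavy chains. Replicate numbers were checked as pairs and not used as such.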

Additional observations from a re-analysis of the deposited data

How the results depend on the processing

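Of 558 values of single genes under the alternatives, 529 kept their direction and their side of the threshold. In Sting-/- DOX against WT DOX, the sign turned for B2m (-0.031) and Tap1 (-0.23) after median-ratio scaling and for Tap1 after quantile normalization (-0.026). Leaving out each library in turn gave Tap1 values of -0.0595 to 0.18. The number of genes that rose in WT DOX against WT saline was 8 after median-ratio scaling and after quantile normalization, and 9 or 10 in the other settings that kept the heavy chains apart. In Sting-/- DOX against WT saline it was 8 after quantile normalization, where Nlrc5 (0.25) was lost. In Sting-/- DOX against WT DOX it was 4 with the heavy chains summed, which leaves 7 features by construction, and 5 after median-ratio scaling. The number that fell in that comparison was 1 with TPM scaling and 1 to 2 without each library. In Sting-/- DOX against WT saline it was 1 (Erap1) after median-ratio scaling and after quantile normalization. The cause was not tested.

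Replicate numbers did not pair the libraries: r of same-numbered libraries ran from -0.03 to 0.10, 4 of 9 libraries correlated best with a library of their own number over both other groups, and 0 of 9 did so within each of the other groups. With the replicate block, 10 genes rose in WT DOX against WT saline, 7 rose and 2 fell in Sting-/- DOX against WT DOX, and 9 rose in Sting-/- DOX against WT saline, the counts without it. The median of all genes in Sting-/- DOX against WT DOX was 0.25 as deposited, -0.01 after median-ratio scaling and 0.02 after quantile normalization. Depth is unknown, and 3 libraries per group limit the precision.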
